A study of Mus musculus with 60 samples.

Results

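The genes described here are those that the mitochondrial genome of the mouse encodes. They were taken as every gene whose name begins with mt- in at least 1 of the 10 tables of compared groups, and their read counts were then read by gene identifier. This gave 27 genes of the 49315 in the count tables, of which 10 encode proteins and 17 encode transfer RNAs (tRNAs). Each table names only part of the genes, and the row of a gene can depend on its level in the 2 groups compared: 18 members were named in all 10 tables, while mt-Tw was named in 8, mt-Tf in 7, mt-Tv in 6, mt-Co3, mt-Ts2 and mt-Tl2 in 5 each, mt-Tt in 3, and mt-Co2 and mt-Atp6 in 2 each, the tables of 100 mg/kg on Day 1 and of 200 mg/kg with TBI against vehicle with TBI. A further 8 genes of chromosome M had a row of counts but were not taken by this rule, 3 of them protein genes (mt-Atp8, mt-Nd3 and mt-Nd4l) and 5 of them tRNA genes. The mitochondrial ribosomal RNA genes were not analysed here.

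Mitochondria carry a small circular genome that is transcribed from both strands into long precursors, which are cut at the tRNAs that lie between the protein genes. All of its protein genes encode subunits of the respiratory chain: NADH dehydrogenase (complex I), cytochrome bc1 (complex III), cytochrome c oxidase (complex IV) and ATP synthase (complex V). Nearly everything else that the genome needs to be copied, transcribed and translated is encoded in the nucleus. In blood, platelets and white cells hold mitochondria, and red cells lose theirs as they mature.

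RNA from whole blood of 60 male CD2F1 mice, bought at 5 to 6 weeks of age, was sequenced in 10 groups of 6. Mice were gavaged with vehicle or with BIO 300 Oral Powder, a formulation of the isoflavone genistein, at 50, 100 or 200 mg/kg of genistein 2 times a day for 6 days. Terminal bleeds from the inferior vena cava followed the last dose by 24 h (Day 0, 4 groups) or 48 h (Day 1, 6 groups). Of the latter, 1 group given vehicle and 1 given 200 mg/kg had received 9.2 Gy of total body irradiation (TBI) 24 h before the bleed. Each mouse gave 1 library, and the labels name no genetic alteration. The libraries held 15099415 to 45589415 counts, with a median of 24877993.5.

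In 10 of the 60 libraries Alb, which encodes serum albumin and is a transcript of hepatocytes, exceeded 100 CPM of total counts (CPM is the usual depth-scaled read count, here with the total count of the library as its base), against at most 58.7 in the other libraries. These were 1 or 2 mice of every group except 50 mg/kg on Day 1. Their Alb levels ranged from 311 CPM of total counts in mouse 43 to 21977 in mouse 51, and mouse 57 also held 5728 CPM of total counts on genes of cardiac and skeletal muscle. Results that change without these 10 libraries are given both ways.

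Counts on the mitochondrial genes came almost wholly from protein genes, which took 99.0% of them against 0.990% for the tRNA genes. Complex IV took 61.6%, complex I 25.1%, complex III 12.3% and complex V 0.0062% of the counts on members. Levels of different genes are compared per length, as the mean over all 60 mice in CPM of total counts per kilobase. mt-Co1, the catalytic subunit of complex IV (chrM:5328-6872, plus strand), stood at 2197 and was the most abundant. mt-Cytb, the cytochrome b of complex III (chrM:14145-15288, plus strand), stood at 586. The complex I genes followed in the order mt-Nd1 (465), mt-Nd4 (231), mt-Nd2 (213), mt-Nd5 (186) and mt-Nd6 (92.0). mt-Nd6 is the only one of these genes on the minus strand, and it shares a few bases at its end with mt-Nd5. Whether counting used the strand, and how it treated reads that touch 2 genes, is not given in the sources used here. Reads over shared bases could therefore not be assigned by position, nor could reads that reach from 1 gene into the next. Without use of the strand, reads from the opposite strand would be counted too. The tRNA genes span 59 to 75 bases and can adjoin another gene, as mt-Tl1 (chrM:2676-2750) does mt-Nd1 (chrM:2751-3707). Counts on tRNA genes may include such reads.

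The remaining protein genes were almost without counts. The complex IV subunits mt-Co3 (chrM:8607-9390) and mt-Co2 (chrM:7013-7696) stood at 0.698 and 0.411 CPM per kilobase, and the complex V subunit mt-Atp6 (chrM:7927-8607) at 0.510. Over all 60 libraries they summed to 871, 448 and 543 counts, against 5401618 for mt-Co1. The study tallied unique gene hits, and chromosome 1 holds nuclear copies of these genes. All 635 stretches of 50 bases in mt-Co2 also occur in another annotated transcript, as do 99.86% of those in mt-Co3 and 99.53% in mt-Atp6. The share was 62.23% for mt-Nd4, 51.14% for mt-Co1, 8.19% for mt-Nd2 and 7.61% for mt-Nd5. It was 0% for mt-Nd1, mt-Nd6, mt-Cytb and all 17 tRNA genes. Values of mt-Co2, mt-Co3 and mt-Atp6 are therefore uncertain throughout.

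The nuclear copy Gm28661 matched mt-Co2 over 681 bases with 0 mismatches, Gm10925 matched mt-Atp6 over 678 bases with 0 mismatches, and Gm28437 matched mt-Co3 over 783 bases with 0 mismatches. Gm29216 matched mt-Co1 over 492 bases with 6 mismatches (98.78% identity). A pair without and a pair with mismatches are shown, read from the GRCm38 reference, with bases that differ within a pair in capitals. The mt-Co1 stretch was picked as the 60 bases with the most differences, and it holds all 6 mismatches. Over the rest of the aligned bases the sequences are the same. Of the 50-base stretches of mt-Co1, 430 recur in Gm29216, and reads within them cannot be assigned by sequence. The first pair is mt-Co3 (chrM:8607-8666, plus strand) and Gm28437 (chr1:24613912-24613971, minus strand), and the second is mt-Co1 (chrM:6381-6440, plus strand) and Gm29216 (chr1:24616138-24616197, minus strand).
mt-Co3: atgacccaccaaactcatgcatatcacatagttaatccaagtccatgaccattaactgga
Gm28437: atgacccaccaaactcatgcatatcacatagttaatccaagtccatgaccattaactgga
mt-Co1: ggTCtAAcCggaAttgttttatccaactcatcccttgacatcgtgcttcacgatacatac
Gm29216: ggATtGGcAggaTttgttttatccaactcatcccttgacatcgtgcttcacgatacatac

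**Figure D1:**
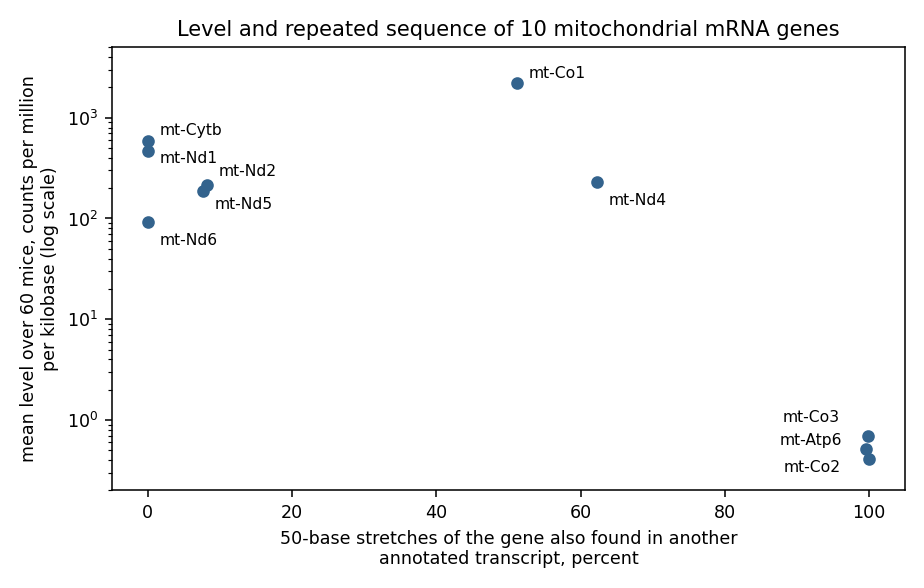
Level of the 10 mitochondrial protein genes (vertical axis, mean over 60 mice in CPM of total counts per kilobase, log scale) against the percentage of their 50-base stretches that also occur in another annotated transcript (horizontal axis). The 3 genes at 99.53% or more lie at or below 0.698, and the other 7 lie between 92.0 and 2197.

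Of the 17 tRNA genes, 10 lie on the plus strand and 7 on the minus strand, and the minus-strand genes took 0.745% of all counts on members against 0.245% for the plus-strand genes. mt-Tp, the tRNA for proline, led with a mean of 322 CPM per kilobase, followed by mt-Tn (asparagine, 78.0) and mt-Tl1 (leucine, 73.9). The lowest was mt-Tt (threonine) at 4.02. The 3 most abundant tRNA genes, and mt-Th (histidine), the tRNA gene with the largest change at 100 mg/kg on Day 1, read as follows on their own strand, with the anticodon in capitals (GRCm38, chrM:15356-15422 minus, chrM:2676-2750 plus, chrM:5089-5159 minus and chrM:11546-11612 plus).
mt-Tp: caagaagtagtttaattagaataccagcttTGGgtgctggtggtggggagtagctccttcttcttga
mt-Tl1: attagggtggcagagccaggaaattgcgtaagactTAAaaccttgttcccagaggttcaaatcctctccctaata
mt-Tn: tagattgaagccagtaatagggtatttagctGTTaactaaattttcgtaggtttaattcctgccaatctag
mt-Th: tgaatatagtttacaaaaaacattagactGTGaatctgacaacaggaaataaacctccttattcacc

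As a share of all counts, the mitochondrial protein genes took 0.173% to 2.15% of a library, with a median of 0.456%. Vehicle-treated mice held 0.395%, 0.460% and 0.850% on Day 0 (lowest, median and highest of 6) and 0.356%, 0.496% and 0.660% on Day 1. On Day 0 the medians with BIO 300 were 0.489%, 0.391% and 0.441% in order of dose, near that of vehicle mice. On Day 1 the share was 0.224%, 0.305% and 0.409% with 50 mg/kg, overlapping with vehicle at its upper end. It was 0.630%, 0.772% and 1.07% with 100 mg/kg, where 1 vehicle mouse reached the range. It was 0.519%, 0.592% and 0.718% with 200 mg/kg. Irradiated mice stood apart by their spread, at 0.173%, 0.306% and 1.61% with vehicle and 0.215%, 0.273% and 2.15% with 200 mg/kg. Their highest values were those of mice 49, 51 and 57, all among the 10 with high Alb, and without them the ranges were 0.173% to 0.352% and 0.215% to 0.445%. In bulk blood, fewer cells of a kind and less RNA in each cell cannot be told apart.

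**Figure D2:**
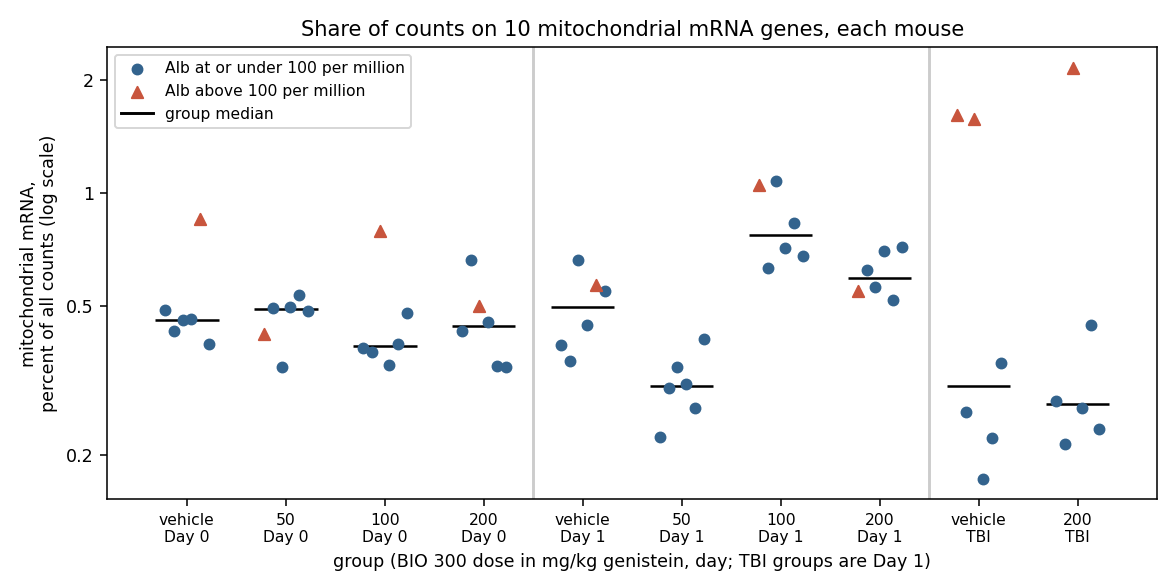
Share of all counts on the 10 mitochondrial protein genes in each of 60 mice by group (percent, log scale), with the group median as a line and mice of Alb above 100 CPM of total counts marked. The medians at 100 and 200 mg/kg on Day 1 are 0.772% and 0.592%, and the 3 highest points of the irradiated groups are marked mice.

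Differences between groups were tested with edgeR's quasi-likelihood test across all genes. A gene was called when its Benjamini-Hochberg adjusted p was under 0.05 and its absolute log2 fold change over 1, with libraries scaled by TMM, which assumes that most genes do not differ. Levels beside a test are CPM after TMM among the mice of that test, written as CPM alone, so values of the same vehicle mice vary between tests. A second scaling by total counts is given because it shifted the median of all genes by -1.38 for 100 mg/kg and by -1.48 for 200 mg/kg on Day 1 (log2).

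On Day 0, 3 of the 27 genes were called lower with 50 mg/kg of BIO 300 than with vehicle, all of them tRNAs, while 4.38% of all genes tested were called lower. The median log2 fold change of the members was -0.75, against 0.03 over all genes. The leucine tRNA mt-Tl1 was at 2.16, 2.83 and 4.05 CPM with BIO 300 and at 4.61, 6.41 and 10.5 CPM with vehicle (lowest, median, highest), without overlap, and its log2 fold change was -1.22, SE 0.241, adjusted p = 0.00543. mt-Ti (isoleucine) stood at -1.57, SE 0.423, adjusted p = 0.0267 and mt-Tw (tryptophan) at -1.13, SE 0.326, adjusted p = 0.0357. Among the protein genes mt-Co1 (-0.91, SE 0.265, adjusted p = 0.0378) and mt-Cytb (-0.89, SE 0.26, adjusted p = 0.0381) missed the size needed for a call. Under total counts the values of mt-Tl1, mt-Ti and mt-Tw were -0.51, -0.81 and -0.44, none called. Without the high-Alb mice 1 and 17 mt-Tl1 was still called (-1.02, SE 0.217, adjusted p = 0.00825), and mt-Ti and mt-Tw were not. The 8 B cell genes summed to 3606 to 4597 CPM of total counts in the treated and 1385 to 2670 in the vehicle mice, and the TMM factors were 1.39 to 2.02 and 0.980 to 1.38. Their part in the tRNA values was not tested.

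The higher doses on Day 0 gave no called member: edgeR called 0 of 27 genes for 100 mg/kg and 0 for 200 mg/kg, with 0% of all genes called in both, and DESeq2 called 0 members in both. Members with an unadjusted p under 0.05 numbered 1 and 2, against 726 of 24000 and 2146 of 23795 genes tested. The members' median log2 fold changes were -0.37 and -0.37, against -0.01 and -0.04 for all genes. Vehicle-treated mice of Day 1 and Day 0 also had 0 of 27 members called (0% of all genes, 0 members by DESeq2). An unadjusted p under 0.05 was found for 0 members and for 3007 of 24375 genes tested.

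With 50 mg/kg on Day 1 edgeR again called 0 of 27 members and 0% of all genes, although 12 members had an unadjusted p under 0.05 and DESeq2 called 2, both lower. The complex I genes mt-Nd2, mt-Nd6, mt-Nd1 and mt-Nd5 had the lowest log2 fold changes among the protein genes. mt-Nd6 had the smallest adjusted p (-1.17, SE 0.237, adjusted p = 0.0837). mt-Nd2 was at 38.4, 106 and 133 CPM against 136, 224 and 330.4 CPM with vehicle, without overlap (-1.24, SE 0.282, adjusted p = 0.0886). mt-Co1 was at 1957, 2193 and 3494 CPM against 1541, 2633 and 3588 CPM (-0.10, SE 0.234, adjusted p = 0.865). The monocyte genes summed to 162 to 306 CPM of total counts with BIO 300 and 321 to 551 with vehicle, without overlap, and the 8 B cell genes had medians of 1618 and 2268. Their part in the mitochondrial values was not tested.

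With 100 mg/kg on Day 1, all 27 members were called higher than in vehicle-treated mice of the same day, against 18.2% of all genes. The members' median log2 fold change was 2.22 while that of all genes was -0.38. In 23 of 27 genes every treated mouse exceeded every vehicle mouse, as in 17.9% of all genes tested. Some of the 27 were named in few tables, mt-Co2 and mt-Atp6 only in that of this comparison and 1 other. The count of 23 is therefore partly tied to how members were taken. The called members included 18 of the 18 members named in every table. mt-Co1 went from 1061, 1836 and 2495 CPM with vehicle to 5946, 9111 and 10442 CPM (2.29, SE 0.285, adjusted p = 9.04e-06). Complex III followed, mt-Cytb going from 253, 376 and 564 CPM to 929.6, 1539 and 3192 CPM (2.14, SE 0.313, adjusted p = 4.02e-05). In both genes every treated mouse exceeded every vehicle mouse.

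The 5 complex I genes rose by 1.61 to 2.01 on the log2 scale with 100 mg/kg. mt-Nd1 was at 203, 334 and 422 CPM with vehicle and at 653, 990.3 and 2102 CPM with BIO 300 (1.83, SE 0.297, adjusted p = 0.000104), and the highest vehicle mouse lay below the lowest treated one. mt-Nd4 rose by 2.01, SE 0.261, mt-Nd6 by 1.76, SE 0.299, mt-Nd5 by 1.72, SE 0.251 and mt-Nd2 by 1.61, SE 0.345. Of the 3 genes with few counts, mt-Co3 was at 0.0491, 0.102 and 0.185 CPM with vehicle and at 1.000, 2.01 and 8.17 CPM with BIO 300 (4.74, SE 0.572, adjusted p = 6.8e-06). mt-Co2 changed by 4.51, SE 0.468 and mt-Atp6 by 4.14, SE 0.773, the latter with 1 vehicle mouse at 0. Their sequence is shared with the nuclear copies shown above, and no library held more than 111 counts on any of them. Since mt-Co2 and mt-Atp6 were taken as members only through this comparison and 1 other, nothing is read from their being higher here.

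The 17 tRNA genes rose by 1.25 to 3.08 with 100 mg/kg, with a median of 2.25 (log2). mt-Tp was at 6.73, 13.3 and 15.7 CPM with vehicle and at 27.5, 52.8 and 65.6 CPM with BIO 300 (2.03, SE 0.234, adjusted p = 4.37e-06). mt-Tl1 rose by 2.25, SE 0.27, and mt-Tn by 1.85, SE 0.241. The largest tRNA changes were those of mt-Th (3.08, SE 0.459), mt-Ti (2.90, SE 0.582) and mt-Tq (glutamine, 2.72, SE 0.523). mt-Ti and mt-Tq lie on opposite strands and share only a few bases at their ends. The smallest change, picked out after the values were seen, was that of mt-Te (glutamate, 1.25, SE 0.321). The tRNA genes of the plus strand had a median of 2.35 and those of the minus strand 1.91.

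The size of these changes depended on the scaling. Under total counts, 8 of 27 members were called higher with 100 mg/kg, against 4.14% of all genes. The calls included 4 of the 18 members named in every table. The 8 were mt-Co2, mt-Co3, mt-Atp6 and 5 tRNA genes, among them mt-Th (1.67, adjusted p = 0.00379) and mt-Ti (1.54, adjusted p = 0.0163). mt-Co1 was at 1983, 2911 and 3526 CPM of total counts with vehicle and at 4254, 5144 and 6723 with BIO 300, without overlap, but its log2 fold change missed the size for a call (0.91, SE 0.186, adjusted p = 0.000418). The complex I genes lay between 0.19 and 0.61 on that scale. Relative to the median of all genes the members stood 2.60 higher under TMM and 2.53 higher under total counts (log2). A change of scaling shifts all genes of a comparison by about the same amount, so the likeness of these values tests nothing.

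With 200 mg/kg on Day 1, 17 of 27 members were called higher, 7 protein genes and 10 tRNA genes, against 17.3% of all genes. The members' median log2 fold change was 1.20 and that of all genes -0.48. In 9 of 27 members every treated mouse exceeded every vehicle mouse, as in 17.4% of all genes tested. The called members included 10 of the 18 members named in every table. mt-Co1 went from 1013, 1753 and 2382 CPM to 5441, 8254 and 8835 CPM (2.21, SE 0.254, adjusted p = 3.7e-06). mt-Cytb rose by 1.28, SE 0.217, adjusted p = 0.000146. Of the complex I genes, mt-Nd4 (1.28, SE 0.201) and mt-Nd6 (1.14, SE 0.227) were called, and mt-Nd5 (0.93, SE 0.223) and mt-Nd1 (0.90, SE 0.239) were not. mt-Nd2 was at 138, 221 and 341 CPM against 89.2, 149 and 214 CPM with vehicle (0.52, SE 0.248, adjusted p = 0.0782), and the groups overlapped. mt-Co3, mt-Atp6 and mt-Co2 rose by 3.99, SE 0.434, by 3.45, SE 0.676 and by 3.40, SE 0.571, again on few counts.

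Among the tRNA genes with 200 mg/kg, mt-Tp went from 6.42, 12.7 and 15.0 CPM to 27.0, 40.8 and 58.7 CPM (1.86, SE 0.216, adjusted p = 4.08e-06). mt-Tw rose by 2.02, SE 0.509, mt-Tf (phenylalanine) by 1.75, SE 0.346, mt-Tl1 by 1.66, SE 0.258 and mt-Tv (valine) by 1.51, SE 0.39. mt-Tn was not called (0.77, SE 0.235, adjusted p = 0.0106).

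Under total counts the direction split with 200 mg/kg. mt-Co2, mt-Co3 and mt-Atp6 were called higher, 3 of 27 against 3.03% of all genes, and 4 tRNA genes were called lower, against 65.5% of all genes. For the 18 members named in every table these counts were 0 and 2. Since mt-Co3 was named in only 5 tables and mt-Co2 and mt-Atp6 in 2 each, nothing is read from the 3 higher calls. The 4 tRNA genes, named after their values were seen, were mt-Tt (-1.73), mt-Ts2 (-1.33), mt-Ty (-1.27) and mt-Te (-1.04), none of which was called under TMM. mt-Co1 stayed positive (0.69, SE 0.153, adjusted p = 0.000809), with 4074, 4493 and 5331 CPM of total counts, all above the vehicle mice. mt-Nd1 turned to -0.60, adjusted p = 0.0355, mt-Nd2 to -0.98, adjusted p = 0.0025 and mt-Cytb to -0.22, adjusted p = 0.326. Relative to the median of all genes the members stood 1.68 higher under TMM and 1.72 higher under total counts.

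**Figure D3:**
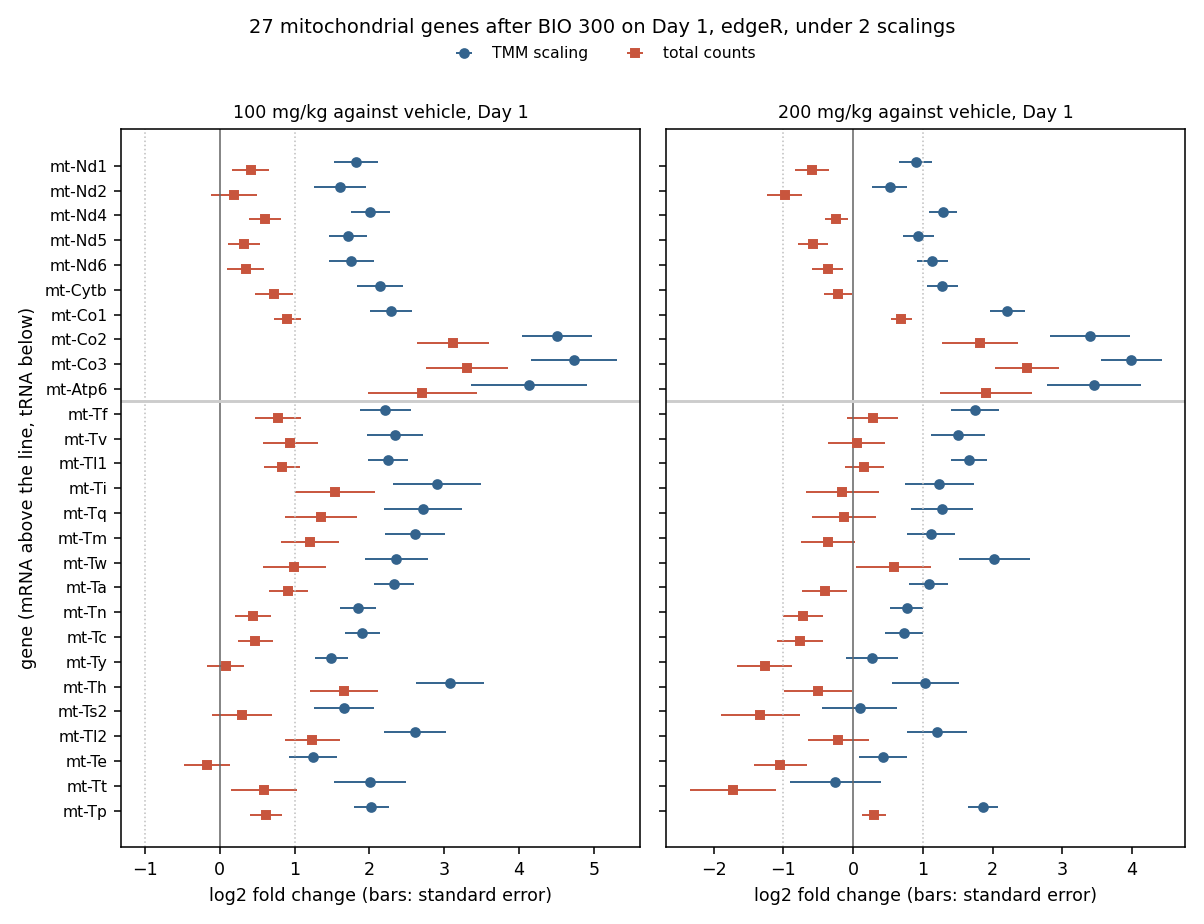
Log2 fold change with standard error of each of the 27 mitochondrial genes for 100 mg/kg (left) and 200 mg/kg (right) against vehicle on Day 1, under TMM and under total counts. All 27 TMM values on the left lie above 1, and on the right mt-Nd1 lies at 0.90 under TMM and -0.60 under total counts, and mt-Co1 at 2.21 and 0.69.

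Other transcripts moved with these results, given here in CPM of total counts. Pf4, which encodes platelet factor 4, was at 294, 397 and 649.9 in vehicle mice on Day 1, at 879, 1271 and 1765 with 100 mg/kg and at 815, 1112 and 1411 with 200 mg/kg. All 8 platelet genes together summed to 3031 to 5808, 7124 to 16836 and 7882 to 13062 in the same order. The 7 erythroid genes, mainly globins, had medians of 134983, 228195 and 241623. These levels were higher in every treated mouse of both doses than in any vehicle mouse. Ptprc, which encodes the white cell antigen CD45, had medians of 873, 93.2 and 122, and the 8 B cell genes 2268, 257 and 291, lower in every treated mouse. Gm26917, a noncoding locus rich in ribosomal RNA sequence, took medians of 7.36%, 0.278% and 0.165% of the counts. The part of any of these in the mitochondrial values was not tested.

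The makeup of the mitochondrial mRNA does not depend on how libraries are scaled. mt-Co1 took 53.4%, 57.6% and 60.3% of the counts on the 10 protein genes in vehicle mice of Day 1. It took 61.4%, 69.0% and 76.7% with 50 mg/kg and 67.3%, 75.0% and 81.7% with 200 mg/kg, and neither range overlapped that of vehicle. With 100 mg/kg the range was 53.4% to 71.2% with a median of 65.9%, and 5 of the 6 mice lay above the vehicle range. On Day 0 vehicle mice held 57.5%, 60.6% and 63.7%, mice with 50 mg/kg 54.4%, 56.6% and 60.9%, and mice with 200 mg/kg 63.5%, 69.1% and 71.4%. Mice with 100 mg/kg on Day 0 ranged from 55.6% to 67.6%. The range of each dose on Day 0 overlapped that of vehicle. The complex I genes took 26.9% to 32.0% in vehicle mice of Day 1. They took the opposite course with 50 mg/kg (14.3% to 25.0%) and 200 mg/kg (11.6% to 21.6%), again without overlap. With 100 mg/kg their range overlapped that of vehicle, through mouse 39. mt-Cytb took 11.3% to 14.6% in vehicle mice and 6.68% to 11.0% with 200 mg/kg, while its ranges with 50 and 100 mg/kg overlapped that of vehicle. These shares are of counted reads, and 51.14% of the 50-base stretches of mt-Co1 recur elsewhere.

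**Figure D4:**
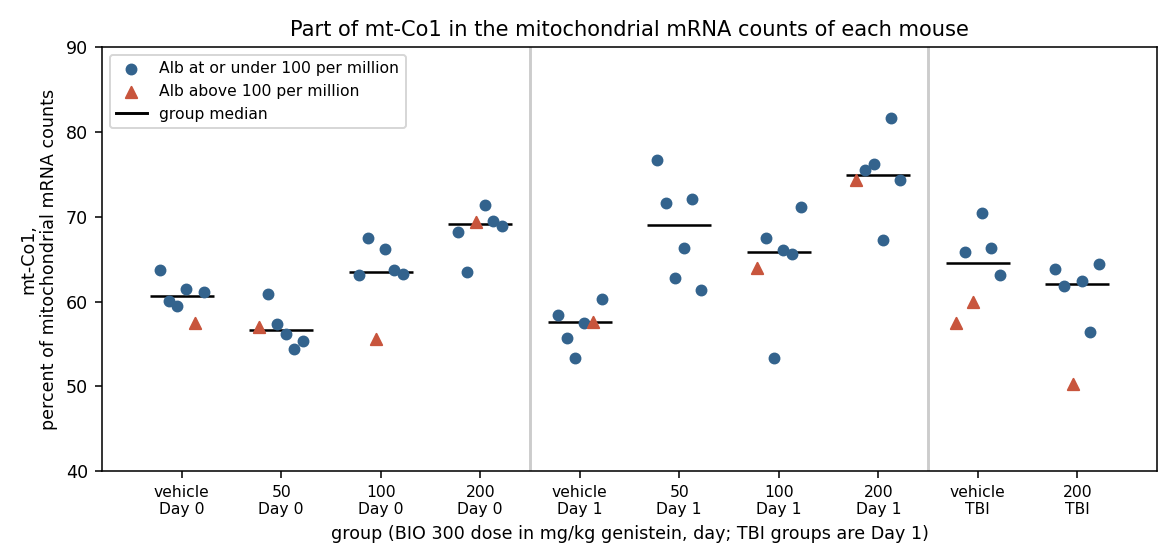
Percentage of the counts on 10 mitochondrial protein genes that fell on mt-Co1 in each mouse, by group, with the group median as a line and mice of Alb above 100 CPM of total counts marked. On Day 1 all unirradiated mice with 50 and 200 mg/kg lie above the highest vehicle mouse at 60.3%.

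A dose may act differently on the days, and this difference of effects was tested directly (an interaction over 4 groups). For 100 mg/kg, 27 of 27 members had a higher effect on Day 1 than on Day 0, against 15.7% of all genes. The difference was 2.46, SE 0.435, adjusted p = 5.27e-05 for mt-Co1, 2.49, SE 0.461 for mt-Cytb and 2.13, SE 0.433 for mt-Nd1 (log2). For 200 mg/kg it was called for 22 of 27 members, all higher, against 13.1% of all genes, with 1.96, SE 0.401, adjusted p = 0.000334 for mt-Co1. mt-Nd2 was not called (0.87, SE 0.465, adjusted p = 0.127). For 50 mg/kg edgeR and DESeq2 each called 0 of 27 members, where edgeR called 7.69% of all genes, with 1 member at an unadjusted p under 0.05 (mt-Co1, 0.81, SE 0.356, adjusted p = 0.126). Under total counts 11 members were called higher for 100 mg/kg, against 3.52% of all genes, 2 were called higher for 200 mg/kg, against 2.40%, and 7 were called lower for 50 mg/kg, against 38.7%.

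After TBI with vehicle, 4 of 27 members were called higher than in unirradiated vehicle mice of Day 1, against 19.6% of all genes. They were mt-Co3 (2.51, SE 0.62, adjusted p = 0.00544), mt-Atp6 (1.98, SE 0.744, adjusted p = 0.0436), mt-Tt (1.47, SE 0.561, adjusted p = 0.0463) and mt-Tf (1.08, SE 0.253, adjusted p = 0.00395), none of them named in all 10 tables. mt-Tf was at 0.759, 0.955 and 1.64 CPM against 0.365, 0.521 and 0.606 CPM. It was the only 1 of the 27 members without overlap, where 10.1% of all genes tested lay higher and 14.9% lower without overlap. The main protein genes spread widely. mt-Nd1 was at 65.6, 227 and 1323 CPM after TBI and at 287, 464 and 599 CPM without it (0.22, SE 0.664, adjusted p = 0.804). mt-Co1 was at 1448, 2923 and 9058 CPM against 1501, 2570 and 3468 CPM (0.80, SE 0.472, adjusted p = 0.175).

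Without the high-Alb mice, 2 of the 6 irradiated and 1 of the 6 unirradiated, the members' median log2 fold change went from 0.93 to -0.93. That of all genes also turned, from 0.088 to -0.165. Then 8 of 27 members were called lower, a count near the 23.5% of all genes called lower. The complex I genes mt-Nd1 (-1.43, SE 0.379, adjusted p = 0.00477), mt-Nd2 (-1.42, SE 0.384, adjusted p = 0.00542) and mt-Nd6 (-1.23, SE 0.387, adjusted p = 0.0131) were among them, as was mt-Tn (-1.15, SE 0.359). mt-Nd5 stood at -0.97, SE 0.373, adjusted p = 0.0359, short of the size for a call. mt-Co1 was at -0.05, SE 0.323 and mt-Cytb at -0.20, SE 0.318, and mt-Co3 was still higher (1.28, SE 0.519, adjusted p = 0.0459). The 8 neutrophil genes summed to 1619 to 7326 CPM of total counts in all irradiated and 603 to 1054 in unirradiated vehicle mice, and the 8 B cell genes to 64.3 to 380.2 and 2171 to 3861. The 8 platelet genes had medians of 15690 and 3135 in the same mice, with overlapping ranges. Their part in these values was not tested.

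Against vehicle mice of Day 0, TBI with vehicle gave 2 of 27 members called higher, against 15.1% of all genes. mt-Tf was one (1.40, SE 0.296, adjusted p = 0.00276) and mt-Co3 the other (1.99, SE 0.591, adjusted p = 0.0191). Without the high-Alb mice 11 members were called lower, against 21.4% of all genes, including mt-Nd1 (-1.37, SE 0.347) and mt-Nd2 (-1.35, SE 0.345), and mt-Tf was still called higher (1.27, SE 0.343). Both comparisons share the irradiated mice.

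In mice given 200 mg/kg, 1 of 27 members was called lower after TBI than without it, while 5.73% of all genes were called lower. That gene was mt-Co1, at 1057, 1485 and 5315 CPM after TBI and at 4156, 6393 and 7879 CPM without it (-1.60, SE 0.429, adjusted p = 0.0141). Of the irradiated mice, mouse 57 alone reached the unirradiated range. Without mouse 57, and mouse 43 of the unirradiated group, 19 of 27 members were called lower, against 8.38% of all genes. mt-Co1 was then at -2.24, SE 0.271, adjusted p = 1.12e-05, mt-Cytb at -1.17, SE 0.241, and the complex I genes mt-Nd6 at -2.003, SE 0.306, mt-Nd1 at -1.94, SE 0.323, mt-Nd5 at -1.60, SE 0.273 and mt-Nd2 at -1.38, SE 0.326. mt-Nd4 (-0.65, SE 0.199, adjusted p = 0.0163) and mt-Tp (-0.85, SE 0.208, adjusted p = 0.00409) fell short of the size for a call. Leaving out mouse 57 alone gave 17 members called lower, against 5.80% of all genes. Under total counts mt-Co1 was at -0.48, adjusted p = 0.391 with all mice, and at -1.40, adjusted p = 2.18e-05 without both mice.

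**Figure D5:**
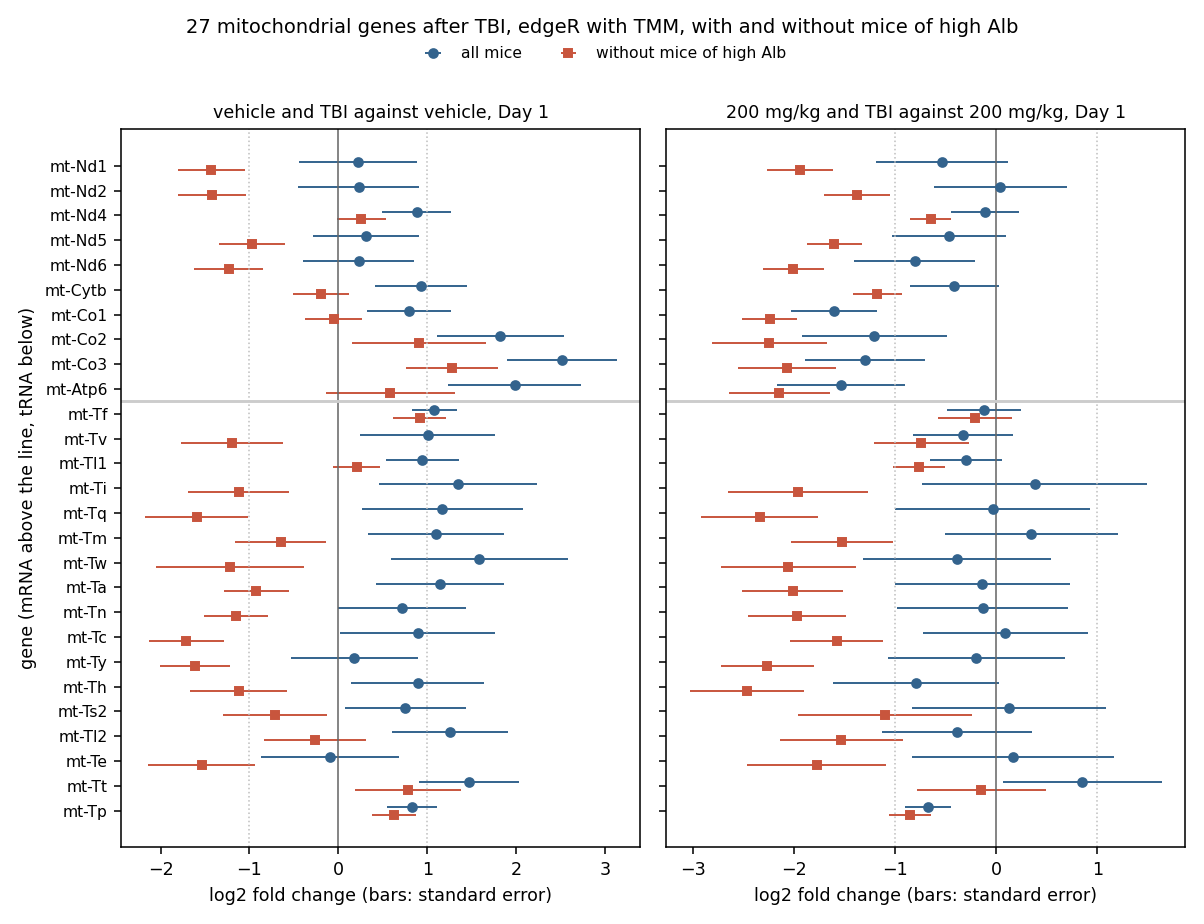
Log2 fold change with standard error of the 27 mitochondrial genes after TBI with vehicle (left) and with 200 mg/kg (right), each against unirradiated mice of the same treatment on Day 1, with all mice and without mice of Alb above 100 CPM of total counts. mt-Nd1 lies at 0.22 and -0.54 with all mice and at -1.43 and -1.94 without the marked ones.

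Irradiated mice given 200 mg/kg and those given vehicle had 0 of 27 members called by edgeR (0% of all genes called) and 0 by DESeq2. An unadjusted p under 0.05 was found for 0 members and for 688 of 24916 genes tested. In the test of whether the effect of 200 mg/kg differed with TBI, 5 of 27 members were called, all lower, against 10.0% of all genes. They were mt-Co1 (-2.27, SE 0.659, adjusted p = 0.0104), mt-Co3 (-3.67, SE 0.912), mt-Atp6 (-3.36, SE 1.035), mt-Co2 (-2.81, SE 1.057) and mt-Tp (-1.38, SE 0.383, adjusted p = 0.00784). Without mouse 57 alone 19 members were called lower, against 13.1% of all genes. Leaving out the high-Alb mice of all 4 groups together kept the number called within 1.5 times of 5. Under total counts 1 member was called lower, against 1.80%. mt-Co2 and mt-Atp6 are in the list through a table that holds the irradiated groups of this test, so nothing is read from their calls.

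Irradiated mice given 200 mg/kg also differed in makeup from the unirradiated mice of that dose, a comparison that needs no scaling. mt-Co1 took 50.3%, 62.1% and 64.4% of the mitochondrial mRNA counts against 67.3% to 81.7%, and the complex I genes 21.8%, 22.9% and 34.5% against 11.6% to 21.6%. For each 1000 counts on mitochondrial mRNA there were 12.6, 13.5 and 15.3 counts on tRNA genes after TBI and 6.96, 7.65 and 8.49 without it. None of these ranges overlapped. The platelet transcript Pf4 had a median of 1884 CPM of total counts in the irradiated and 1112 in the unirradiated mice. The neutrophil genes summed to 1804 to 6805 against 264 to 536 and Ptprc was at 367 to 1093 against 43.1 to 178, both without overlap, and the part of any of these in the values was not tested. With vehicle, mt-Co1 took 57.5%, 64.5% and 70.5% after TBI against 53.4% to 60.3% without it, the complex I genes 17.1%, 21.5% and 26.9% against 26.9% to 32.0%, and the tRNA genes 9.32, 11.1 and 14.3 counts for each 1000 against 8.00 to 12.3. All 3 of these pairs of ranges overlapped. Without the high-Alb mice mt-Co1 took 63.2% to 70.5% after TBI and 53.4% to 60.3% without it. The complex I genes then took 17.1% to 23.3% and 26.9% to 32.0%, and neither pair of ranges overlapped.

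The nuclear genes for mitochondrial DNA upkeep, transcription and RNA processing were read as a list of 45, of which 43 had counts. With 100 mg/kg on Day 1, 2 of 43 were called higher and 12 lower, against 18.2% and 30.6% of all genes. With 200 mg/kg 1 was called higher and 13 lower, against 17.3% and 30.5%, and without the high-Alb mice 20 were called lower, against 33.4%. The list had medians of -0.70 and -0.87 on the log2 scale, where all genes had -0.38 and -0.48 and the mitochondrial genes 2.22 and 1.20. Ssbp1, which binds single-stranded mitochondrial DNA, went from 5.41, 7.11 and 7.97 CPM to 1.70, 2.06 and 2.40 CPM with 100 mg/kg (-1.74, SE 0.149, adjusted p = 2.46e-07), and it changed by -2.01, SE 0.229 with 200 mg/kg. Mterf1a, a member of the mitochondrial transcription termination factor family, changed by -1.70, SE 0.248 and by -1.89, SE 0.39. Polrmt, the mitochondrial RNA polymerase, was at -0.95, SE 0.162, which was not called, and at -1.16, SE 0.225, which was. Tfam, which packages mitochondrial DNA and takes part in its transcription, was at -0.31, SE 0.125 and -0.50, SE 0.119. Lrpprc, which stabilises mitochondrial mRNA, was at 0.45, SE 0.128 and 0.48, SE 0.107, and neither gene was called at either dose. The genes called higher, named after their values were seen, were Rexo2, an oligoribonuclease (1.18, SE 0.148, and 1.495, SE 0.153), and with 100 mg/kg Mtpap, the mitochondrial poly(A) polymerase (1.12, SE 0.114). Under total counts 36 and 38 of 43 were called lower and 0 higher, against 62.2% and 65.5% of all genes called lower.

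After TBI with vehicle, 9 of these 43 nuclear genes were called lower and 0 higher against vehicle mice of Day 1, where 16.4% of all genes were called lower. Without the high-Alb mice 22 were called lower, against 23.5% of all genes. Trmt10c, a subunit of the enzyme that cuts the 5′ ends of mitochondrial tRNAs, was at 2.05, 4.19 and 11.2 CPM against 15.0, 18.3 and 20.0 CPM (-1.78, SE 0.333, adjusted p = 0.000893), without overlap. Mterf2 changed by -1.61, SE 0.272, Ssbp1 by -1.55, SE 0.318, Polrmt by -1.19, SE 0.457, adjusted p = 0.048 and Tfam by -1.05, SE 0.256, adjusted p = 0.00511. Lrpprc was at 0.06, SE 0.374. In mice given 200 mg/kg, 1 of the 43 was called lower after TBI, Rexo2 (-1.88, SE 0.21, adjusted p = 6.68e-05), which was named after its value was seen, against 5.73% of all genes called lower. Under total counts 12 were called higher, against 38.5% of all genes.

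Of the 6 nuclear copies of mitochondrial sequence, 5 were called higher with 100 mg/kg on Day 1 and 3 with 200 mg/kg, against 18.2% and 17.3% of all genes. Under total counts edgeR called 0 higher in either, against 4.14% and 3.03%. An unadjusted p under 0.05 was found there for 2 and 2 of the 6, against 18376 of 23699 and 18575 of 23513 genes tested. Gm28438, the copy with the most counts, went from 1.98, 2.39 and 3.16 CPM to 8.36, 10.7 and 12.9 CPM with 100 mg/kg (2.10, SE 0.153, adjusted p = 6.53e-08), and it rose by 1.85, SE 0.176 with 200 mg/kg. Gm29216, the copy of part of mt-Co1, rose by 2.09, SE 0.361 and by 2.46, SE 0.433. After TBI with vehicle 0 of the 6 were called by edgeR against vehicle mice of Day 1. An unadjusted p under 0.05 was found for 1, Gm28438 (0.91, SE 0.26, adjusted p = 0.0128), and for 13893 of 25146 genes tested. Reads of these loci and of the mitochondrial genes cannot be separated where their sequences are the same.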

How the data were processed

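Blood was collected into PAXgene tubes. The study's methods name a stranded total RNA kit with ribosomal and globin RNA depletion, while the labels name polyA selection. The deposited raw counts per gene were made by the authors with Trimmomatic 0.36, STAR 2.5.2b on GRCm38 and Subread 1.5.2, per the submitters' processing notes. The annotation release, the strand setting and the treatment of reads over more than 1 gene are not given in the sources used here. From the authors' own DESeq2 comparisons, which hold fold changes and p-values, nothing but gene names was taken.

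Groups were taken from the labels, irradiation from the titles. Each of 11 contrasts was fitted on its own 12 mice, and each of 4 interactions on 4 groups, with edgeR 4.0.16 (R 4.3.3, glmQLFit and glmQLFTest, TMM, genes with at least 10 counts summed over the fit), and SE is the absolute log2 fold change divided by the square root of F. All adjusted p-values are Benjamini-Hochberg values over all genes tested, from edgeR unless DESeq2 (1.42.0) is named. The scripts were tested on simulated data. The members and gene lists were chosen with earlier results of these data known. All mitochondrial protein genes were named, with the 3 most abundant tRNA genes, at most 3 further called tRNA genes in a comparison with the largest changes, at most 3 nuclear genes likewise plus Tfam, Polrmt and Lrpprc, and the nuclear copies. Sequences, coordinates and repeated 50-base stretches came from the GRCm38 reference with GENCODE M21, which held 48970 of the 49315 gene identifiers. Alternatives were other scalings, filters, tools and sets of mice. Leaving out high-Alb mice and scaling by total counts together was chosen after seeing the data.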

Additional observations from a re-analysis of the deposited data

Results flagged for a closer look

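The share of counts on mitochondrial protein genes, its tRNA counterpart and the mt-Co1 part of the mitochondrial mRNA were examined in 10 groups each for a mouse far from the other 5 (by the gap to the nearest mouse over the range of the group), and 7 of 30 were singled out, where chance gives about 1 in 20. Mouse 17 (vehicle, Day 0) held 0.85% of its counts on mitochondrial protein genes and 0.0087% on tRNA genes, both the highest of its group. Mouse 9 (100 mg/kg, Day 0) held 0.791% and 0.0086%, also the highest, and the lowest mt-Co1 part of its group at 55.6%. Mouse 57 (200 mg/kg with TBI) held 2.15% and 0.027%. All 3 mice are among the 10 with high Alb, and the part of other tissue in their values was not tested.

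The effect of BIO 300 differed between Day 1 and Day 0 in 27 members for 100 mg/kg and in 22 members for 200 mg/kg, by the test of the difference itself, where 15.7% and 13.1% of all genes were called higher, and total counts gave 11 and 2 members. The 27 and the 22 include mt-Co2, mt-Co3 and mt-Atp6, from whose calls nothing is read. The effect of 200 mg/kg differed between irradiated and unirradiated mice in 5 members, where 10.0% of all genes were called lower. Nothing is read from mt-Co2 and mt-Atp6 among these 5. Total counts gave 1 member, or 0 when Gm26917 and Gm42418 were left out. Leaving out mouse 57 alone gave 19, while leaving out the high-Alb mice of all 4 groups kept the number within 1.5 times of 5.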

How the results depend on the processing

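No paired analysis was possible because every animal number occurs once, so no number is shared between groups. Counts of called members were the same within 1.5 times in 104 of 150 alternatives to the main fits (leaving out single mice aside), and the cause of the other changes was not tested. The 104 include comparisons without a called member in the main fit, where staying at 0 counted as the same, so this number is no measure of stability. The removal of ribosomal RNA counts could take out Gm26917 and Gm42418 only. For 50 mg/kg on Day 0 (3 called lower) total counts gave 0, with or without Gm26917 and Gm42418, RLE factors 5, DESeq2 7, 1 fit of 60 mice 1, and no high-Alb mice 1. With 50 mg/kg on Day 1 (0) filterByExpr gave 1 and DESeq2 2. With 100 mg/kg on Day 1 (27) both total scalings gave 8. With 200 mg/kg on Day 1 (17) total counts gave 7 (3 higher, 4 lower), total counts without Gm26917 and Gm42418 gave 8 (3 higher, 5 lower) and 1 fit of 60 mice gave 11. For TBI against vehicle of Day 1 (4 higher) both total scalings gave 1, filterByExpr 2, no count minimum 2 and no high-Alb mice 9 (1 higher, 8 lower). Against vehicle of Day 0 (2 higher) both total scalings and filterByExpr gave 1 and no high-Alb mice 12 (1 higher, 11 lower). For TBI within 200 mg/kg (1 lower) both total scalings gave 0, DESeq2 2 and no high-Alb mice 19. The differences of effects by day went from 0 to 7 for 50 mg/kg under both total scalings, from 27 to 11 and 9 for 100 mg/kg, and from 22 to 2 under both for 200 mg/kg, with 10 in 1 fit of 60 mice. The difference by TBI went from 5 to 1 and 0.

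High-Alb mice left out and total counts together gave 1 (higher), 2, 8 and 6 for the same order of doses and days. The 6 were 3 higher and 3 lower, where 719 of 22601 genes were called higher and 15581 lower. TBI against vehicle of Day 1 and Day 0 gave 14 and 15 (all lower). Of all genes, 8776 of 23274 and 6465 of 22568 were called lower there, and 2607 and 3037 higher. TBI within 200 mg/kg gave 7 (all lower), where 303 of 21088 genes were called lower and 8143 higher. The differences of effects gave 9, 11, 1 and 3 (2 higher, 1 lower). The log2 ratios of group medians of class levels moved under TMM to -0.62 (mRNA) and -0.42 (tRNA) for 50 mg/kg on Day 0, 0.23 (tRNA, 200 mg/kg, Day 0), -0.38 (tRNA, 50 mg/kg, Day 1), 2.06 and 2.01 (mRNA and tRNA, 100 mg/kg, Day 1), and 1.79 and 1.35 (200 mg/kg, Day 1). Genes turned direction with 200 mg/kg on Day 1 under total counts, those without Gm26917 and Gm42418, and those without high-Alb mice: mt-Nd4 (-0.24, -0.30, -0.17), mt-Nd6 (-0.36, -0.41, -0.28) and mt-Cytb (-0.22, -0.28, -0.21), and in the last 2 mt-Tv (-0.01, -0.16). In the difference by day for 200 mg/kg, mt-Nd1 (-0.11, -0.14, -0.23) and mt-Tn (-0.23, -0.27, -0.30) turned in all 3, mt-Nd5 (-0.01, -0.09) in the last 2, and mt-Nd6 (-0.03) and mt-Cytb (-0.04) in the last. mt-Atp6 after TBI (-0.04, against vehicle of Day 1) and mt-Tp in the difference by TBI (0.05) turned in the last too.

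Without 1 mouse in turn the counts ranged from 1 to 7 for 50 mg/kg on Day 0 (1 without mouse 1, 3, 4 or 15, 5 without 14, 16 or 18, 7 without 2), 0 to 2 on Day 1 (2 without 36), 26 to 27 and 13 to 19 for the higher doses on Day 1, 1 to 7 for TBI against vehicle of Day 1 (1 without 26 or 49, 2 without 25, 29 or 30, 7 without 52 or 53), 1 to 5 against Day 0 (1 without 49, 4 without 17, 5 without 52), 1 to 17 for TBI within 200 mg/kg (2 without 43, 17 without 57), 27 to 27 and 18 to 22 by day, and 4 to 19 by TBI (19 without 57). They were 0 to 0 in the others.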
